A study of Homo sapiens with 9 samples.

Results

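The Hi-C libraries of growing and senescent fibroblasts were compared at the scale of whole chromosomes. Of the 9 samples of the series, the 5 genome-wide Hi-C libraries were taken by their labels, 3 of growing cells and 2 of cells in RAS-induced senescence (RIS). Hi-C ligates DNA ends that lie close together in fixed nuclei, so that each sequenced pair reports a contact. The cells of all 5 libraries were IMR90, a line of human fetal lung fibroblasts, at passage 20-25 and carrying ER:HRAS(G12V), an oncogenic HRAS fused to the oestrogen receptor that is switched on by 4-hydroxytamoxifen (4OHT). For RIS this 4OHT was given at 100 nM over 6 days, and growing cells were not treated. Growing replicate 3 carried an MSCV vector in addition, so 1 of the 3 growing libraries differed from the others in its vectors. One cell line was used throughout, and the p-values cover the spread between these libraries only, in most limma fits pooled over chromosomes.

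In the interphase nucleus each chromosome occupies a territory of its own, so contacts within a chromosome (cis) far outnumber contacts with other chromosomes (trans), and cis contacts become rarer with the distance along the DNA. Over long distances, gene-rich active chromatin tends to meet other active chromatin and gene-poor inactive chromatin other inactive chromatin, which divides the genome into A and B compartments. Fibroblasts made senescent by RAS are known for gathering heterochromatin into large foci.

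The deposited values were balanced contacts per pair of 40 kb bins, with every bin of a library brought to the same sum. Dividing by 1 factor per bin gave back whole contacts, between 109967509 in RIS replicate 1 and 180775315 in growing replicate 3. Contacts within a single bin were left out, and the 65957 bins of chromosomes 1 to 22 with values in all 5 libraries were used. Growing replicate 3 and RIS replicate 2 belong to a class of libraries with many duplicate reads, and the other 3 to a class with few. The study's alignment table lists more dangling ends, fragments that were cut but not ligated, for both RIS libraries than for any growing library, so their share and the condition cannot be told apart.

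In RIS libraries a larger share of contacts joined different chromosomes. Only shares were compared. Recovered trans contacts numbered 9833080 and 13109248 in RIS and 10316399 to 12078363 in growing libraries. The trans share, the percentage of contacts that joined 2 different autosomes, was 10.28%, 10.46% and 10.07% in growing replicates 1, 2 and 3. It was 13.04% and 13.12% in RIS replicates 1 and 2, above every growing library, and the mean rose from 10.3% ± 0.1995 (SD, n = 3) to 13.1% ± 0.0618 (SD, n = 2). The two-sided exact permutation test gave p = 0.1, the smallest value that 3 against 2 libraries allow, and this limit holds for every exact test below. The difference of 2.81 percentage points was 2.66 within the class with few duplicates and 3.06 within the class with many. In recovered contacts the counting error was far smaller than this difference, with a 95% Wilson interval of 12.52% to 12.53% in RIS replicate 1, the shallowest library. In balanced values, scaled alike in every library, a trans contact per pair of bins was 1.27-fold as frequent in RIS.

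Of the 22 autosomes, 20 had a higher trans share in RIS (limma on log2 of trans over cis, adjusted p under 0.05, 90.9% of those tested) and none a lower one. In shares per chromosome a trans contact counts for both of its chromosomes, so that all of them lie above the genome-wide share. Chromosomes 19 and 22, both rich in genes, were not called. The median difference over all 22 chromosomes was 0.42 on the log2 scale of trans over cis, and the same number, 20, was called when each chromosome kept its own spread.

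**Figure D1:**
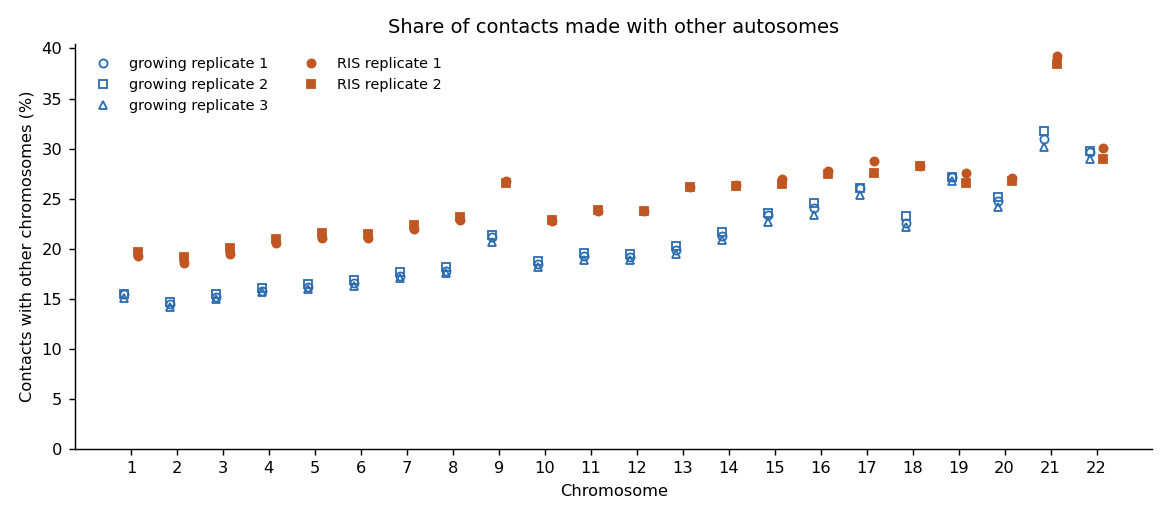
Share of contacts made with other autosomes (%, y axis) for chromosomes 1 to 22 (x axis), 1 point per library, open blue symbols for the 3 growing and filled orange symbols for the 2 RIS libraries. The RIS points lie above all growing points on 20 chromosomes and overlap with them on chromosomes 19 and 22.

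The largest change in log2 of trans over cis was on chromosome 13, a gene-poor chromosome of which the bins cover the long arm only. Its trans share in growing cells was 19.8%, 20.2% and 19.5%, against 26.2% in both RIS libraries. The ratio of trans over cis rose 1.43-fold (log2 difference 0.52, SE 0.03). The limma adjusted p was 3.4e-25 with the spread pooled over chromosomes and 0.00096 without pooling. In percentage points the trans share changed most on chromosome 21, by 7.86 against 6.32 on chromosome 13. Chromosome 21, the smallest autosome, had the highest trans share in both conditions, at 30.9%, 31.7% and 30.1% in growing and 39.2% and 38.4% in RIS. Its ratio of trans over cis rose 1.41-fold, and chromosome 5 followed with 1.40-fold. On the largest, chromosome 1, the share went from 15.4%, 15.5% and 15.1% to 19.2% and 19.6%, a 1.33-fold rise of the ratio. Chromosome 18, small and gene-poor, rose 1.35-fold.

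At the other end, chromosome 19, the most gene-dense autosome, had 27.2%, 27.2% and 26.7% in growing and 27.5% and 26.6% in RIS libraries, which overlap. The difference in log2 of trans over cis was 0.00 (SE 0.03), and it turned negative in several other settings. With cis contacts of 1 Mb or more only, the difference was 0.353. Chromosome 22 behaved alike, with 29.7%, 29.7% and 28.9% in growing against 30.1% and 29.0% in RIS. Chromosome 20 rose 1.12-fold, the smallest change among the called chromosomes.

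Set against the mean of the other 21 autosomes, the trans level of 15 chromosomes was higher in RIS (68.2%) and that of 6 lower (27.3%). Only chromosome 10 was not called. The 6 that fell relative to the others were 15, 16, 17, 19, 20 and 22. In their own trans share 15, 16, 17 and 20 were called higher, and 19 and 22 were not called. The relative level of chromosome 19 fell from 0.57, 0.54 and 0.57 to 0.22 and 0.15 on the log2 scale. This ordering depended on the cis contacts under 1 Mb. With cis contacts of 1 Mb or more only, all 22 chromosomes had a higher trans share in RIS, and 6 differed from the rest, 3 in each direction.

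Chromosomes listed as gene-dense (16, 17, 19, 20 and 22, with 8.68 to 25.0 protein-coding genes per Mb) and as gene-poor (4, 5, 13 and 18, with 2.80 to 4.89) lay closer together in their trans shares in RIS. The lists were chosen with earlier results known and do not follow the measured density throughout. These densities divide by the full hg19 length, in which long runs of unknown bases lower the values of 16, 21 and 22. Densities without unknown bases were not computed. By full length, chromosome 11 (9.76) is denser than 16, 20 and 22. By the same measure chromosomes 8 (4.84) and 21 (4.76) are poorer than 5. All 3 were outside the lists and rose in trans over cis, chromosome 11 by 1.31-fold. Of the listed gene-dense chromosomes 3 of 5 rose, with a median difference of 0.16 against 0.42 over all chromosomes. All 4 listed gene-poor chromosomes rose, with a median of 0.48. Over all 22 chromosomes 20 rose (90.9%), so 4 of 4 is near that background. The gap between the means of the 2 lists, on the scale of log2 of trans over cis, shrank from 0.66, 0.64 and 0.64 in growing to 0.33 and 0.25 in RIS libraries (difference -0.35). With chromosomes 11, 8 and 21 added to the lists by density, it went from 0.41, 0.38 and 0.39 to 0.11 and 0.06 (difference -0.31). Counting cis contacts of 1 Mb or more only, the difference for the lists as first given was -0.03. Across the 22 chromosomes the change in log2 of trans over cis had a Pearson correlation of -0.77 and a Spearman correlation of -0.84 with gene density, and of -0.66 (Pearson) without chromosomes 17 and 19, which lie farthest from the median density. With chromosome length the correlations were 0.59 and 0.52, and 0.65 (Pearson) without chromosomes 1 and 2. The chromosomes share the same 5 libraries, so these values are descriptions without a test.

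Contacts between single pairs of chromosomes differed between the conditions as well. For each of the 231 pairs of autosomes, contacts per pair of bins were divided by the mean over all pairs in that library, and the log2 of this ratio is given here. The 2 conditions did not overlap in 217 pairs (93.9%), 106 higher (45.9%) and 111 lower (48.1%) in RIS. No test was made on single pairs. Trans contacts per pair of bins were 1.27-fold as frequent in RIS, so higher and lower are relative to a mean that rose. A lower ratio need not mean fewer contacts. The largest gain was between chromosomes 4 and 13, both gene-poor, from -0.13, -0.11 and -0.11 in growing to 0.31 and 0.30 in RIS. The largest relative loss was between chromosomes 4 and 19, the one gene-poor and the other gene-dense, from 0.05, 0.05 and 0.03 to -0.61 and -0.59. The RIS libraries were thus nearly equal to each other in both pairs. Chromosome 19 was also part of the next largest relative losses, with chromosomes 18 (-0.63) and 13 (-0.60).

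**Figure D2:**
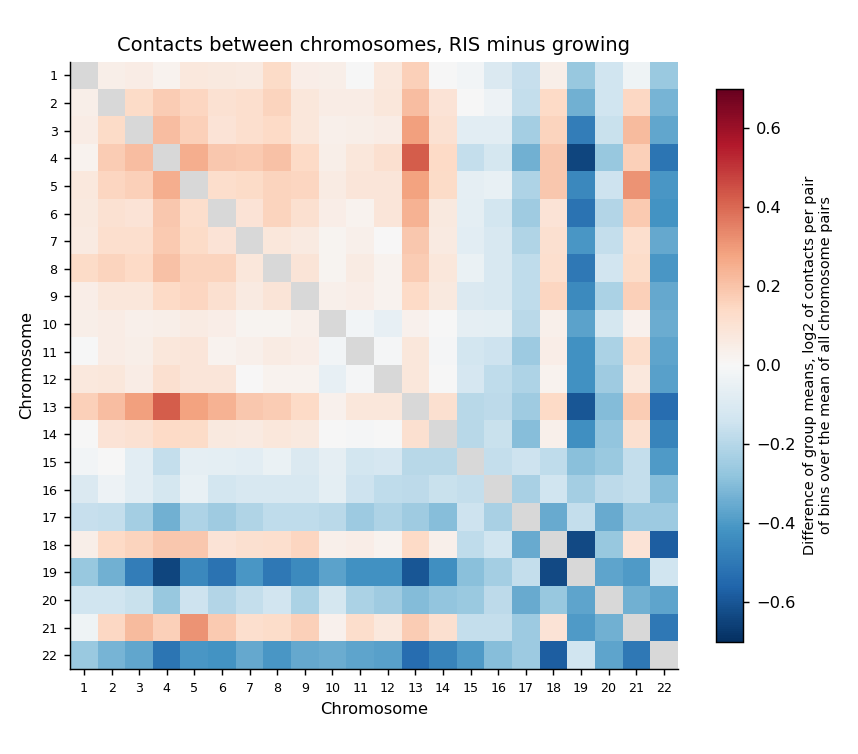
Difference between RIS and growing group means for each pair of autosomes, as log2 of contacts per pair of bins over the mean of all chromosome pairs in a library (colour, red higher and blue lower in RIS, grey not applicable). Each of chromosomes 15, 16, 17, 19, 20 and 22 has a lower mean with all 21 others, and the strongest gain is between chromosomes 4 and 13, at 0.42.

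Over the same lists, the mean of the 6 pairs of 2 gene-poor chromosomes went from 0.00, 0.03 and 0.02 in growing to 0.26 and 0.27 in RIS, with no overlap in any of the 6 pairs. The mean over the 20 pairs of a gene-dense and a gene-poor chromosome went from 0.37, 0.37 and 0.37 to 0.03 and 0.01. All 20 pairs were lower in RIS relative to the mean of all pairs. Pairs of 2 gene-dense chromosomes went from 1.40, 1.40 and 1.35 to 1.21 and 1.04, with 9 of 10 pairs lower without overlap. Over all 231 pairs 93.9% did not overlap, 45.9% higher and 48.1% lower in RIS, so the absence of overlap alone is near that background. With chromosomes 8, 11 and 21 added by density, the differences were 0.20 for gene-poor, -0.26 for mixed and -0.27 for gene-dense pairs. Since the listed gene-dense chromosomes had lower trans levels relative to the others in RIS, the pairs were also set against what the trans totals of their chromosomes give. On that scale the gene-dense pairs were higher in RIS, at 0.80 and 0.77 against 0.49, 0.50 and 0.48 in growing. The mixed pairs remained lower, at -0.26 and -0.21 against -0.08, -0.09 and -0.07, and the gene-poor pairs remained higher, at 0.10 and 0.08 against 0.01, 0.02 and 0.01.

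Within chromosomes, contact frequency depended on distance in a different way in RIS cells. Mean contacts per pair of bins, as a share of all cis contacts, were lower in RIS between 0.179 and 22.6 Mb and higher from 28.4 Mb on. Of 34 distance bins, spaced evenly on a log scale, 11 were called (32.4%), 7 higher at 35.7 to 141 Mb (20.6%) and 4 lower at 8.996 to 17.9 Mb (11.8%). The peak was at 71.1 Mb, where log2 levels were -0.90, -0.96 and -0.98 in growing and -0.11 and -0.21 in RIS, a 1.72-fold rise. The strongest loss was at 14.3 Mb, from 2.06, 2.15 and 2.25 in growing to 1.99 and 1.83 in RIS, 0.844 of the growing level. At both distances the RIS libraries lay outside the range of the growing ones. No lower bin was called without growing replicate 3 (7 higher), without RIS replicate 2 (9 higher) or with the duplicate class as a block (7 higher). As a share of all contacts, trans included, 7 bins were called higher and 18 lower. Bins next to each other share most of their chromosomes and are not independent.

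**Figure D3:**
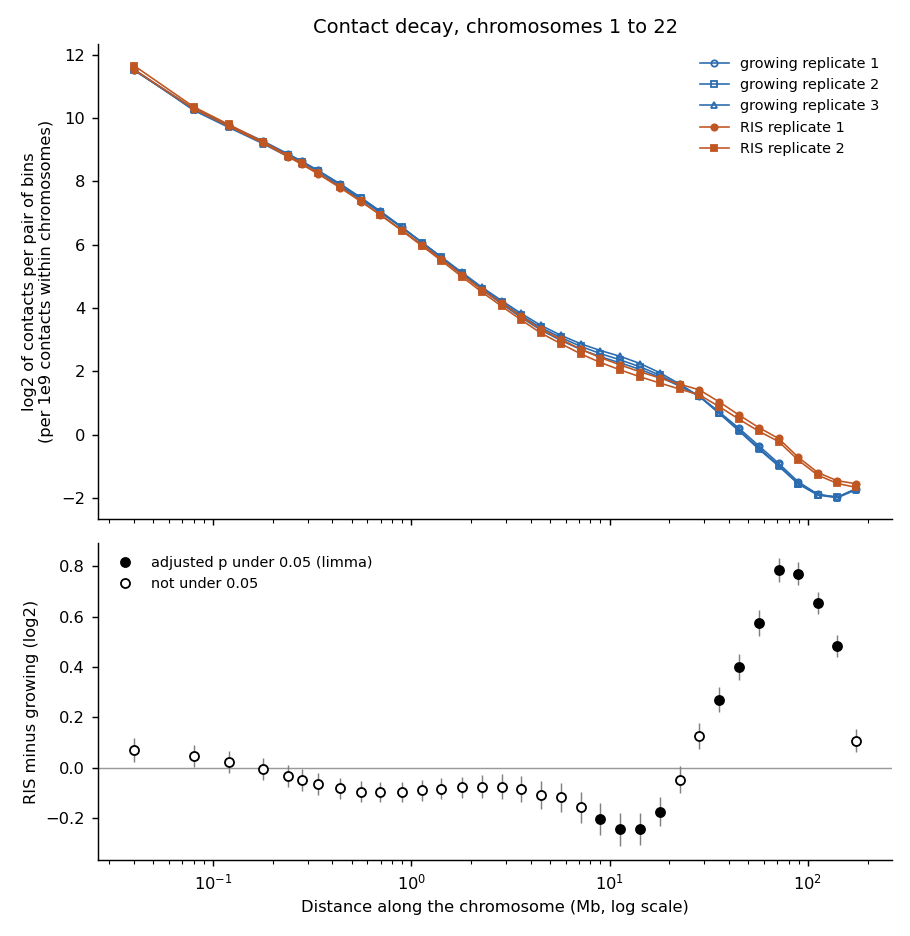
Top, log2 of contacts per pair of 40 kb bins, scaled to the same total of cis contacts in each library (y axis), against distance (Mb, log scale) on chromosomes 1 to 22, 1 line per library. Bottom, RIS minus growing with the standard error of limma, filled where the adjusted p is under 0.05. The curves cross between 22.6 and 28.4 Mb, and the difference is largest at 71.1 Mb.

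When the distances were grouped, the class of 50 Mb or more held 2.67%, 2.58% and 2.54% of cis contacts in growing and 4.16% and 3.87% in RIS libraries, 1.54-fold more (exact permutation test p = 0.1). The class of 200 kb to 2 Mb, the scale of domains and of loops between regulatory elements, held 35.8%, 35.5% and 34.7% in growing and 33.6% and 33.6% in RIS. The conditions overlapped in the other 3 classes and in the median contact distance, which was 360, 375 and 391 kb in growing against 384 and 325 kb in RIS. In the class of 40 to 200 kb the RIS replicates differed from each other, with 37.3% in replicate 1, inside the range of the growing libraries (36.9% to 37.5%), and 39.8% in replicate 2.

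Far cis contacts also rose relative to trans contacts. Those at 50 to 100 Mb were 10.1, 9.48 and 9.72 times as frequent per pair of bins as trans contacts in growing libraries and 12.4 and 11.5 times in RIS. At 100 to 200 Mb the ratios were 4.90, 4.79 and 4.93 in growing and 5.43 and 5.06 in RIS. With the mean trans level of each library subtracted, 11 distance bins were called, 7 of them higher in RIS.

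The slope of the decay, the change of log10 contacts per log10 of distance, differed in 3 of 4 ranges. From 80 to 500 kb it was -0.988, -0.990 and -0.990 in growing and steeper in RIS, at -1.04 and -1.06. From 0.5 to 7 Mb the values overlapped, with means of -1.35 ± 0.0346 (SD, n = 3) and -1.35 ± 0.0313 (SD, n = 2). From 7 to 50 Mb the decay was shallower in RIS, with -0.73 and -0.72 against -0.90, -0.96 and -1.01. From 50 to 200 Mb it was steeper, with -1.17 and -1.16 against -0.91, -0.86 and -0.85. In each of these 3 ranges the exact permutation test gave p = 0.1. Local slopes, between neighbouring distance bins, did not keep the same direction throughout the 2 ranges beyond 7 Mb. From 7.14 to 8.996 Mb the group mean was -0.81 in RIS against -0.68 in growing, steeper in RIS. From 56.6 to 71.1 Mb it was -1.01 against -1.65, shallower in RIS. From 89.5 to 112 Mb it was -1.47 against -1.11, steeper in RIS. At the far end the growing curve turned upward, with local slopes of 0.86, 0.83 and 0.81 between 141 and 175 Mb, where RIS libraries had -0.30 and -0.40. Only the longest chromosomes reach these distances.

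Chromosome by chromosome, the gain of far contacts was found on most but not all. The share of contacts at 50 Mb or more was higher in RIS on 16 of the 20 chromosomes long enough to have it, namely 1 to 15 and 18. In all, 32 of the 108 combinations of chromosome and distance class were called (29.6%), 20 higher (18.5%) and 12 lower (11.1%). On chromosomes 16, 17, 19 and 20 the share was not called. The farthest distance bins of chromosomes 19 and 20 lay at 53.0 and 54.4 Mb, so their length leaves little of this class to measure. Without pooling of the spread 13 of the 16 remained, and chromosomes 1, 9 and 14 had adjusted p of 0.130, 0.106 and 0.0571. The 32 calls became 20 without growing replicate 3 (15 higher and 5 lower), 53 without RIS replicate 1 (24 higher and 29 lower), 19 with the duplicate class as a block (16 higher and 3 lower) and 14 without pooling (13 higher and 1 lower). The number of lower calls thus varied more than that of higher ones.

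Chromosome 4 changed most. Its contacts at 50 Mb or more made up 3.34%, 3.34% and 3.29% in growing and 7.42% and 7.14% in RIS, a 2.19-fold rise (log2 difference 1.13, SE 0.04). The counts behind these shares were 272961 to 313249 contacts in growing and 423535 and 540712 in RIS libraries, which had fewer contacts in all. Chromosome 5 followed with 2.71%, 2.65% and 2.69% against 5.03% and 4.74% (1.82-fold), and chromosomes 3 and 18 rose 1.69-fold each. On chromosome 1, the longest, the rise was only from 4.15%, 3.94% and 3.92% to 4.75% and 4.34%, 1.13-fold. Chromosome 19 had 258 to 390 such contacts per library, and its shares of 0.0731%, 0.0866% and 0.0760% in growing and 0.0837% and 0.0570% in RIS overlapped. Over the 20 chromosomes the change had a Spearman correlation of -0.82 with gene density and of 0.44 with length. These values include chromosomes 19 and 20, which barely reach 50 Mb.

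**Figure D4:**
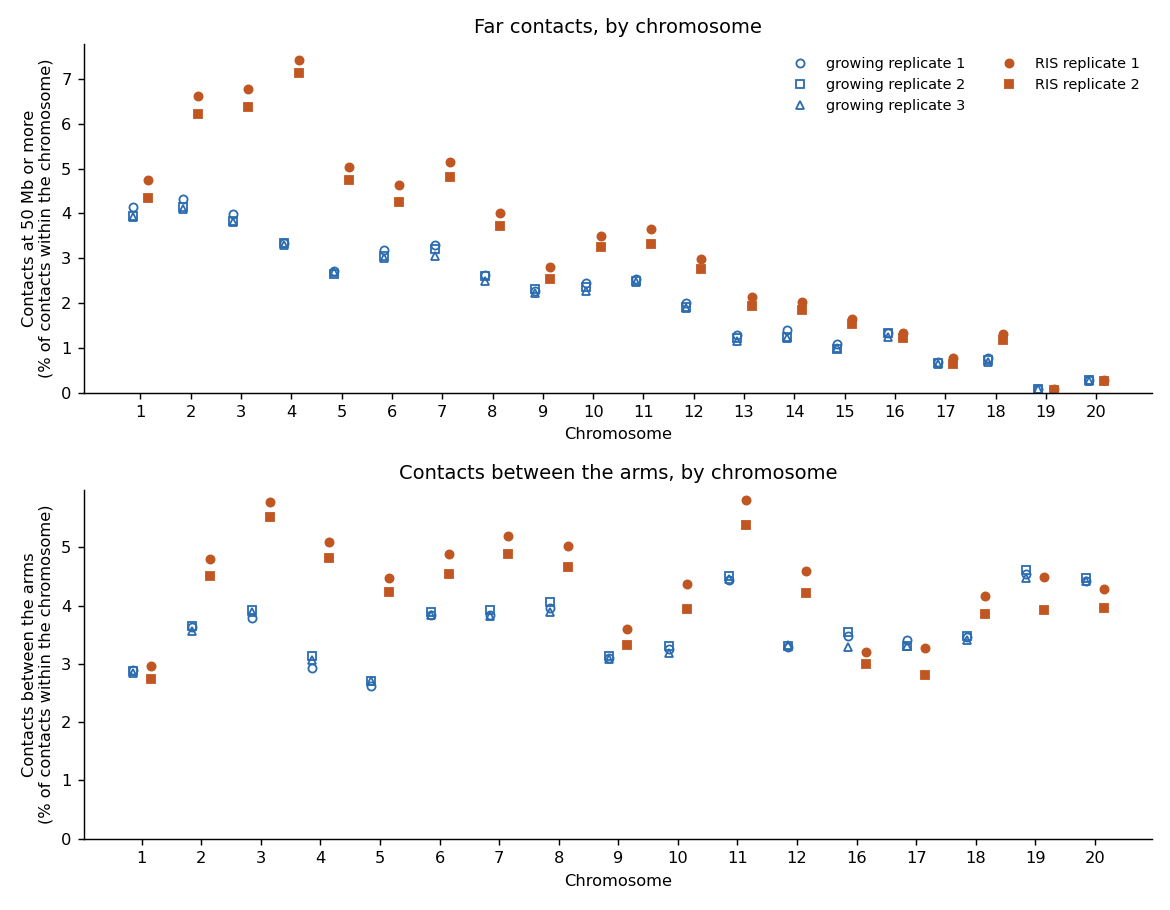
Share of the contacts within a chromosome (%, y axes) that span 50 Mb or more (top) and that join the 2 arms (bottom), by chromosome (x axis), 1 point per library, open blue symbols for growing and filled orange for RIS. The widest gaps are on chromosomes 4, 3 and 2 in the top panel and on 4, 3 and 5 in the bottom panel, while chromosomes 16, 17, 19 and 20 are at or below the growing level between the arms.

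Some chromosomes had lower shares of contacts at intermediate distances in RIS. The class of 2 to 10 Mb was called lower in RIS on chromosomes 16, 17, 19, 20 and 22, and the class of 10 to 50 Mb on these and on chromosome 21. In each of the 2 classes RIS was lower without overlap on 8 chromosomes, at 2 to 10 Mb also on chromosomes 2, 4 and 15 and at 10 to 50 Mb also on 1 and 15, none of them called. Chromosome 11, gene-dense as well, overlapped in both classes (0.942-fold and 0.977-fold). On chromosome 19 the class of 2 to 10 Mb held 9.86%, 10.4% and 11.5% in growing and 8.14% and 7.29% in RIS. On chromosome 22 it held 7.74%, 8.45% and 9.54% in growing and 6.62% and 5.79% in RIS. At 40 to 200 kb chromosomes 17, 19 and 22 were called higher in RIS, with 46.7%, 46.0% and 45.4% against 51.2% and 53.9% on chromosome 19. RIS was higher without overlap in this class on 12 of 22 chromosomes. At 10 to 50 Mb chromosome 13 was the only one called higher, from 13.3%, 13.8% and 14.4% to 17.1% and 15.6%. Chromosomes 4 and 18 were higher there without overlap and were not called (adjusted p = 0.0721 and 0.0830, limma). None of these calls under 50 Mb held when the spread was not pooled over chromosomes. The only further call, on chromosome 4 at 200 kb to 2 Mb, did hold (lower in RIS, 35.9%, 35.3% and 34.5% against 31.3% and 31.8%). In that class RIS was lower without overlap on 20 of 22 chromosomes.

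The distance at which RIS overtook growing cells varied. Beyond 1 Mb, the mean RIS level stayed above the growing one from 11.3 Mb on for chromosome 13, and from 22.5 to 28.4 Mb on for chromosomes 1, 2, 4 to 8, 10, 12 and 18. It did so from 35.7 to 35.8 Mb on for chromosomes 3, 14, 15 and 20, and from 56.3 and 70.3 Mb on for chromosomes 17 and 16. Chromosomes 9, 11, 19, 21 and 22 had no such distance, since the level had to stay higher out to the last bin. Chromosome 9 was nevertheless up to 1.27-fold higher (at 89.9 Mb) and chromosome 11 up to 1.53-fold (at 56.6 Mb). On chromosome 4 the largest difference was 2.64-fold at 112 Mb, and on chromosome 3 it was 2.10-fold at 71.3 Mb. On chromosomes 16 and 20 the largest rise was only 1.07-fold and 1.03-fold. These differences by chromosome and distance were not tested. Chromosome 22 was lower in RIS at every distance beyond 1 Mb.

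The slopes per chromosome separated a change shared by all from changes in some. From 80 to 500 kb all 22 chromosomes had a steeper decay in RIS (100%), with or without pooling. The median difference was -0.06, and it was largest on chromosomes 19 (-0.11, SE 0.01), 17 (-0.10) and 22 (-0.08). It was smallest on chromosomes 6, 13 and 12, each at -0.04 or -0.05. On chromosome 19 the slopes were -1.13, -1.13 and -1.11 in growing and -1.22 and -1.26 in RIS.

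From 0.5 to 7 Mb only chromosomes 17, 22 and 19 were called (13.6%), all with a steeper decay in RIS. On chromosome 17 the slopes were -1.53, -1.50 and -1.42 in growing and -1.62 and -1.65 in RIS. The 3 calls became 5 without growing replicate 1 and 0 with the replicate number as a block (limma, lowest adjusted p 0.0962). They fell to 0 without RIS replicate 2 (lowest adjusted p 0.0971) and when the spread was not pooled, where 6 chromosomes had groups that did not overlap and the lowest adjusted p was 0.45. Between the listed gene-dense and gene-poor chromosomes the mean slope in this range differed by -0.12, -0.12 and -0.09 in growing and by -0.25 and -0.25 in RIS.

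From 7 to 50 Mb all 22 chromosomes were called (100%), 21 with a shallower decay in RIS (95.5%) and chromosome 21 with a steeper one (4.55%). With each chromosome's own spread 9 were called, all shallower, and without RIS replicate 1 or without RIS replicate 2 the number was 13. Chromosome 18 changed most, from -0.81, -0.87 and -0.92 to -0.54 and -0.54, followed by chromosomes 19, 4 and 7 with differences of 0.31 to 0.32. On chromosome 18 the growing libraries were spread more widely than the RIS libraries. Chromosome 16 had the smallest rise, 0.11. On chromosome 22, where the farthest distance bin lay at 32.8 Mb, the conditions overlapped.

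**Figure D5:**
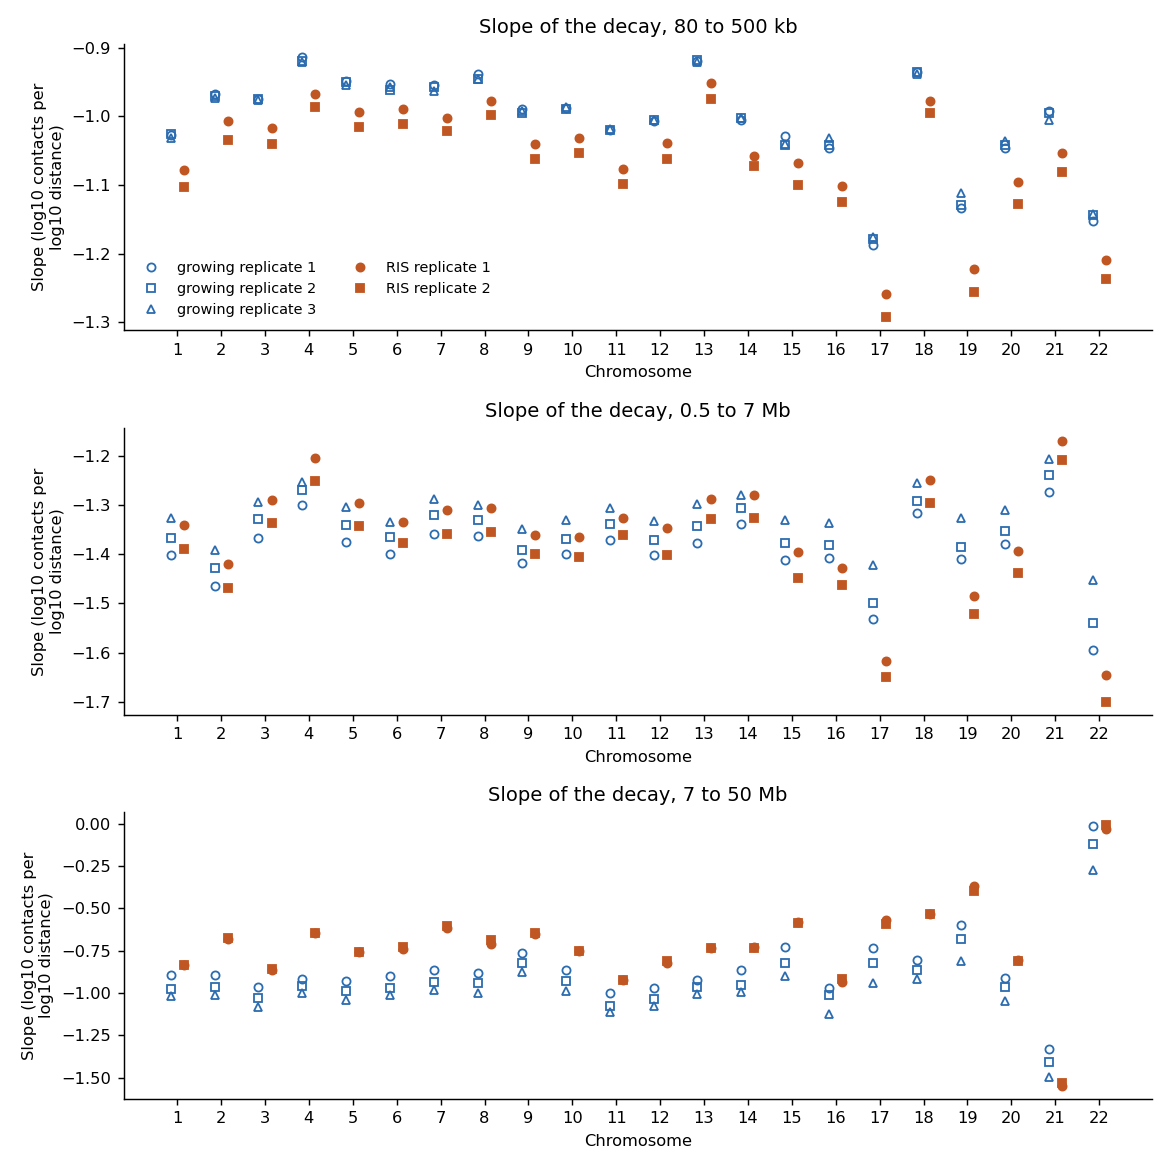
Slope of the contact decay (log10 contacts per log10 distance, y axes) from 80 to 500 kb, 0.5 to 7 Mb and 7 to 50 Mb for chromosomes 1 to 22 (x axes), 1 point per library, open blue symbols for growing and filled orange for RIS. RIS lies below growing on every chromosome in the top panel and above it on all but chromosomes 21 and 22 in the bottom panel, where these overlap or are reversed.

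Chromosome 21 holds a few bins on its short arm, 34 in all (1.36 Mb), before the gap at its centromere (hg19, chromosome 21, 11200001 to 14320000). With them the slope from 7 to 50 Mb went from -1.33, -1.41 and -1.50 in growing to -1.55 and -1.53 in RIS, a difference of -0.13. Without them the difference was -0.63. Both were called, but chromosome 21 was not called without growing replicate 2, without either RIS replicate or without pooling (adjusted p = 0.142).

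The share of contacts between the 2 arms of a chromosome was higher in RIS on most chromosomes. The arms of 17 chromosomes were divided at the longest run of bins without values, which overlapped the longest run of unknown bases in hg19. On chromosome 4, for example, this run was from 49640001 to 52680000. Of the 17, 16 were called (94.1%), 12 with a higher share between the arms in RIS (70.6%) and 4 with a lower one (23.5%). The 5 acrocentric chromosomes 13, 14, 15, 21 and 22 were not part of this comparison, chromosome 21 despite the few bins on its short arm.

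On chromosome 4 the arms made 2.94%, 3.13% and 3.07% of the contacts with each other in growing and 5.09% and 4.82% in RIS. Between-arm over within-arm contacts rose 1.66-fold. The limma adjusted p was 3.3e-18 with the spread pooled over chromosomes and 0.0034 without pooling. Chromosomes 5 and 3 followed with 1.65-fold and 1.49-fold. Chromosome 18 rose 1.17-fold, from 3.46%, 3.48% and 3.41% to 4.17% and 3.85%. The RIS libraries lay above all growing libraries on each of the 12 chromosomes that rose.

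The 4 chromosomes called lower were 16, 17, 19 and 20. Chromosome 11, denser in genes than 16 and 20 by full length, rose 1.27-fold, from 4.44%, 4.51% and 4.46% to 5.82% and 5.39%. Chromosome 16 changed from 3.48%, 3.54% and 3.29% to 3.20% and 2.99%, 0.898 of the growing ratio. On chromosome 17 the ratio fell to 0.905 and on chromosome 19, where the libraries overlapped, to 0.922. The 4 lower calls became 1 without growing replicate 1, growing replicate 2 or RIS replicate 2, 2 without growing replicate 3 and 5 without RIS replicate 1, while 12 higher calls were made each time. With the replicate block 1 lower and 11 higher calls were made. None of the 4 was called without pooling, which left 11 chromosomes, all higher in RIS. Chromosome 1, whose arms are separated by a gap of 21 Mb, had 2.89%, 2.87% and 2.85% in growing and 2.97% and 2.73% in RIS and was not called.

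At equal distance no common change between the arms was found. The log2 ratio of between-arm to within-arm contacts, compared within distance bins, averaged -0.08, -0.04 and -0.08 in growing and -0.07 and -0.02 in RIS over the 17 chromosomes (exact permutation test p = 0.5). Single chromosomes moved in both directions, 6 up (35.3%) and 6 down (35.3%), with chromosome 19 up by 0.45, chromosome 3 up by 0.37 and chromosome 1 down by 0.34. Chromosome 4, with the largest rise in between-arm share, was not called here (-0.03, limma adjusted p = 0.45). Chromosome 17, like 19 called lower in that share, was up by 0.16. Only 6 of the 17 were called with recovered contacts, and 5 without the bins within 5 Mb of the gap.

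Far contacts were also counted within single arms. Among the 38 arms of at least 20 Mb, the share of contacts at 10 Mb or more did not overlap between the conditions in 21 (55.3%), higher in RIS in 7 (18.4%) and lower in 14 (36.8%). The long arm of chromosome 4 gained most, from 16.53%, 16.98% and 17.45% to 23.2% and 21.3%, followed by the long arm of chromosome 13. The short arm of chromosome 4 overlapped, with 9.11%, 9.39% and 10.1% against 9.93% and 8.99%. Both arms of chromosomes 16, 17, 19 and 20 were lower in RIS, and the short arm of chromosome 19 fell from 2.36%, 2.50% and 2.83% to 1.48% and 1.28%. The slope from 0.5 to 7 Mb was steeper in 8 of the 38 arms (21.1%), namely 8p, 16p, 17p, 17q, 19p, 19q, 20q and 22q, and in none without RIS replicate 2 or without pooling.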

How the data were processed

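The authors checked the reads with FastQC, aligned them to hg19 with HiC-Pro, removed artefacts with HiC-Pro and diffHic and duplicates with samtools markdup. They deposited the ICE-balanced signal of each library per pair of 40 kb bins, in both orientations and scaled to 200000000. One orientation was kept. Whole contacts were recovered by dividing by 1 factor per bin, estimated from trans pairs. In all 5 libraries the values recovered as 1 to 10 contacts came out whole within a tolerance of 0.05. Above 10 contacts the tolerance grew in proportion, so the check cannot fail for pairs with many contacts. Intervals from them cover counting error only.

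Shares, slopes over 10 distance bins per decade and arm measures were computed with Python 3.11.15. Features were tested with limma 3.58.1 in R 4.3.3 (Benjamini-Hochberg adjustment, threshold 0.05), and whole-genome values with a two-sided exact permutation test. In most fits across chromosomes limma pooled the spread fully, so its p-values treat the chromosomes of a library as independent. Fits without pooling have 3 residual degrees of freedom. The duplicate class was taken from the study's alignment table. Protein-coding genes per Mb came from GENCODE on GRCh37, over the full chromosome length with unknown bases included. Chromosome pairs and shares within arms were described without a test. Named chromosomes were the 3 with the largest and the 3 with the smallest difference in a measure and chromosomes 1, 18, 19 and 21. Others were named where counts of few or single values were described, after their values were seen. The members and lists were chosen with earlier results of these data known. The recovery of contacts, the slope fit and limma on trans shares were tested on simulated data, and the other measures were not. The simulated noise was independent between chromosomes. The capture Hi-C libraries were not used. Alternatives were recovered contacts, other bin sets, ranges, scalings and blocks, and each library left out.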

Additional observations from a re-analysis of the deposited data

How the results depend on the processing

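The trans share differed by 2.81 percentage points, 3.05 in recovered contacts, 2.03 with same-bin contacts counted and 5.47 with cis contacts of 1 Mb or more, and by 2.71 to 2.91 with 1 library left out. In percentage points with 1 library left out, the class of 40 to 200 kb differed by 0.0907 to 2.59, the class of 50 Mb or more by 1.27 to 1.56 (2.39 of contacts of 200 kb or more) and the class of 10 to 50 Mb by -0.743 to 0.562. The last was 0.195 in recovered contacts, 0.0493 without low-coverage bins and 0.271 of contacts of 200 kb or more, against -0.0907. The slope of 80 to 500 kb differed by -0.0697 to -0.0470 with 1 library left out. The slope of 0.5 to 7 Mb differed by -0.0244 to 0.0198 then, by 0.00927 in recovered contacts, 0.00286 without low-coverage bins and 0.00228 over other ranges. Other ranges gave 0.351 for 7 to 50 Mb, and subtracting the trans level gave -0.335 for 50 to 200 Mb. The mean between-arm ratio at matched distance changed by -0.00773 to 0.0444 with 1 library left out, by -0.0499 in recovered contacts and by -0.0302 without bins near the gap.

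The gap between gene-dense and gene-poor chromosomes in log2 of trans over cis changed by -0.394 to -0.316 with 1 library left out, -0.405 in recovered contacts, -0.415 with same-bin contacts and -0.0276 with cis contacts of 1 Mb or more. Their slope gap of 0.5 to 7 Mb changed by -0.125 in recovered contacts. With the lists completed by measured gene density, chosen after seeing the data, the trans gap changed by -0.312 and the slope gaps by -0.122 (0.5 to 7 Mb) and -0.0192 (7 to 50 Mb), and gene-poor pairs by 0.2005 and mixed pairs by -0.263. Against the trans totals of the chromosomes, pairs changed by 0.300 (gene-dense), 0.0756 (gene-poor) and -0.153 (mixed). In recovered contacts gene-poor pairs changed by 0.195 and mixed pairs by -0.355. With 1 library left out gene-dense pairs changed by -0.346 to -0.173 and mixed pairs by -0.355 to -0.342.

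Among counts of calls, chromosomes that differed from the rest in trans share numbered 6 with cis contacts of 1 Mb or more. Distance bins numbered 25 as a share of all contacts (7 higher and 18 lower), 7 with the duplicate class as a block and 7 to 14 with 1 library left out. Combinations of chromosome and class numbered 19 with that block (3 lower), 14 without pooling (1 lower) and 20 to 53 with 1 library left out (15 to 24 higher and 5 to 29 lower). For the slope of 0.5 to 7 Mb they numbered 0 without pooling and 0 to 5 with 1 library left out, for 7 to 50 Mb 9 and 13 to 22, and for arms 0 and 0 to 8. Matched-distance calls numbered 6 in recovered contacts and 5 without bins near the gap.

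The labels do not say whether a replicate number marks a shared culture or batch. Deviations of libraries with number 1 correlated at 0.70 over chromosome trans shares, -0.46 over distance classes and -0.55 over distance bins, and those with number 2 at 0.13, -0.22 and 0.39, so 2 pairs with mixed signs did not settle it. With the replicate block, which leaves growing replicate 3 without a partner, the class of 10 to 50 Mb differed by 0.0998 and the slope of 0.5 to 7 Mb by 0.0152, calls for that slope numbered 0 by chromosome (lowest adjusted p 0.0962) and 3 by arm, and the trans difference was 2.71. With the block chromosomes 19 and 22 changed in log2 of trans over cis by -0.00941 and -0.0114.

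Chromosomes with no call changed sign. For trans over cis, chromosome 19 was at -0.00475 without low-coverage bins, -0.0892 with same-bin contacts, -0.0138 with chromosome X and -0.0328 to 0.0370 with 1 library left out. Counting cis contacts of 1 Mb or more only, chromosome 19 was at 0.353 and called higher (limma adjusted p = 5.8e-06), and chromosome 22 was called higher as well. Chromosome 22 was at -0.0480 in recovered contacts, -0.00532 without low-coverage bins, -0.0648 with same-bin contacts, -0.00226 with chromosome X and -0.0325 to 0.0453 with 1 library left out. The slope of 0.5 to 7 Mb on chromosome 1 differed by -0.000687 with the trans level subtracted, -0.00158 with the duplicate class as a block and -0.0240 to 0.0247 with 1 library left out, and on chromosome 18 by -0.00864 to 0.0378. Between-arm contact on chromosome 1 changed by 0.0216 in recovered contacts, 0.00101 without low-coverage bins and -0.0716 to 0.0488 with 1 library left out. The small number of libraries limits every comparison, and the length of chromosome 19 leaves few contacts at 50 Mb or more on it.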
